A study of Mus musculus with 18 samples.

Results

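Galectin-related genes were followed through the repair of the wire-injured mouse carotid artery, namely Lgals1, Lgals3, Lgals3bp, Lgals8 and Lgals9. They were chosen by symbol, with earlier results of these data known, and make up 5 of the 35655 genes in the count table. All 5 passed the filter on low counts and were among the 10312 genes tested.

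The tissue was the laser-dissected vessel wall, including neointima, of wild-type (WT) C57/BL6 male mice on chow, which were operated on at 11 weeks of age. The left carotid was injured with a wire, the right carotid served as control in the study, and thrombosed vessels were removed from it. Libraries came from up to 70 sections per sample by MACE, a method that sequences transcripts near their 3′ end, with 4 libraries at day 0 (labelled as before injury), 4 at day 7, 3 at day 14, 4 at day 21 and 3 at day 28. In 3 cases a day 0 and a day 21 library carry the same mouse number, and the sources do not say whether day 0 tissue came from the opposite, uninjured artery of injured animals. The study's figure text calls the samples pooled and the labels name no animals beyond these mouse numbers, so p-values measure the spread between these libraries, which may be partly technical. Libraries held 440675 to 878310 counts with a median of 659166. Levels are given as CPM, the usual depth-scaled count, here over a library's TMM-scaled total, so that 1 count was worth 1.18 to 2.33 CPM.

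Galectins are lectins that bind β-galactoside sugars on glycoproteins. They are made in the cytosol, can leave the cell without a signal peptide, and act on cell adhesion, on the uptake of debris and, inside the cell, on damaged endosomes and lysosomes. Galectin-3 (Lgals3) is abundant in activated macrophages and galectin-1 (Lgals1) in mesenchymal cells, while galectins 8 and 9 carry a pair of sugar-binding domains in tandem. Lgals3bp is not a galectin itself but encodes a secreted, heavily glycosylated scavenger receptor domain protein that galectin-3 binds. It is known to be induced by interferon.

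The RefSeq promoter table (build GRCm38.p6) held a window of 250 bases before to 50 bases after the start for 4 of the 5 genes, Lgals1 being the exception. The windows of the 3 genes that were called on 1 or more days and had an entry are shown because these genes carry the calls described next. They lie at chr14:47373610-47373909 on the + strand for Lgals3, at chr11:118401910-118402209 on the - strand for Lgals3bp and at chr11:78984875-78985174 on the - strand for Lgals9. Capitals mark matches to either a GC box (GGGCGG) or a short interferon regulatory factor pattern (AANNGAAA), read on both strands.
Lgals3: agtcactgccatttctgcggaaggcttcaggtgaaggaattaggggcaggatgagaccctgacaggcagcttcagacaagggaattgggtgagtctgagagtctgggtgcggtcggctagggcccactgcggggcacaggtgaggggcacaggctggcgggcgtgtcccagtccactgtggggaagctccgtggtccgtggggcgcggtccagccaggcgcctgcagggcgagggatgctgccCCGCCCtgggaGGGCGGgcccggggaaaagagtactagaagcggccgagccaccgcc
Lgals3bp: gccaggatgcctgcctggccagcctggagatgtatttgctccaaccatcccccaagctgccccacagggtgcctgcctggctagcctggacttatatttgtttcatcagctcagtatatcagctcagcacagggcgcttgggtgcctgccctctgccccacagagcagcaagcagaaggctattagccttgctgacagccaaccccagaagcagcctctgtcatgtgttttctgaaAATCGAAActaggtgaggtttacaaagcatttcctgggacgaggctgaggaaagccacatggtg
Lgals9: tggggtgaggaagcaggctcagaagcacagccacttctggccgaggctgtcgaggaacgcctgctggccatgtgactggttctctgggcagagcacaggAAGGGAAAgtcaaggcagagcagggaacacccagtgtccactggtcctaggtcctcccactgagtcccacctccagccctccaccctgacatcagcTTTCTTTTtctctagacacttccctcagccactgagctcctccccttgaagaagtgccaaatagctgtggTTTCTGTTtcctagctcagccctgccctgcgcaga
Lgals3 had 2 GC boxes, at positions -7 and 4 from the start, which also lie in a window of 67% GC. Across all 32851 promoters of that length 35.7% held a GC box and the median GC content was 52.7%. Lgals3bp had 1 match to AANNGAAA, at position -14, and Lgals9 had 3, at -151, -55 and 15, a pattern held by 23.9% of all promoters. None of these letters, nor those searched for AP-1 (TGANTCA, 7.81% of all promoters), C/EBP (TTGCNNAA, 10.8%) and PU.1 (GAGGAAGT, 3.2%), were found in the Lgals8 window, and the last 3 were not found in the windows shown. A match is a description of letters only.

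Lgals3 peaked on day 7 and came back close to its day 0 level by day 28. It is on chromosome 14 from 47605208 to 47623624 in GRCm39 (+ strand). The 4 day 0 libraries held 74.4, 64.6, 87.9 and 119 CPM, a mean of 86.6 ± 23.9 (SD, n = 4). Day 7 libraries held 741, 742, 460 and 904 CPM, with a mean of 712 ± 184 (SD, n = 4), so that the lowest library of day 7 lay far above the highest of day 0. This was 8.21-fold higher, a log2 fold change of 3.04 (standard error 0.38, edgeR adjusted p = 2.8e-06). Later libraries held less, with 136, 335 and 258 CPM at day 14 (mean 243 ± 101, SD, n = 3), 158, 121, 268 and 93.1 CPM at day 21 (160 ± 76.7, SD, n = 4), and at day 28 129, 36.4 and 112 CPM (92.5 ± 49.4, SD, n = 3). Day 14 was still above day 0 in every library (log2 fold change 1.49, standard error 0.38, edgeR adjusted p = 0.0181), although that call was lost without day 0 replicate 1 (adjusted p = 0.0504), day 0 replicate 2 (0.0649), day 14 replicate 2 (0.174) or day 14 replicate 3 (0.0630). On days 21 and 28 the libraries overlapped those of day 0. The log2 fold change was 0.89 on day 21 (95% interval 0.14 to 1.64, edgeR adjusted p = 0.134) and 0.10 on day 28 (-0.72 to 0.92, edgeR adjusted p = 0.942).

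Measured against the peak, Lgals3 fell on each later day and every later library lay below every day 7 library. On the log2 scale the change was -2.14 on day 21 (standard error 0.36, edgeR adjusted p = 0.000601) and -2.94 on day 28 (standard error 0.42, edgeR adjusted p = 6.8e-05). Between days 7 and 14 it was -1.55 (standard error 0.39, edgeR adjusted p = 0.0368), and there the call was lost in a fit of the 2 days alone (adjusted p = 0.0575), with the replicate number as a block (0.0738) and in 6 of the 18 fits that left out 1 library, the highest being 0.356 without day 14 replicate 1. Neighbouring days 14 and 21, and 21 and 28, did not differ beyond their spread.

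Lgals3bp was higher on days 7, 14 and 21 than on day 0. The gene is on chromosome 11 from 118280716 to 118292918 (GRCm39, - strand). Day 0 libraries held 20.8, 40.6, 7.45 and 14.4 CPM, a mean of 20.8 ± 14.3 (SD, n = 4) that rests on as few as 5 counts in a library. Levels on day 7 were 180, 167, 183 and 134 CPM (mean 166 ± 22.5, SD, n = 4), on day 14 they were 131, 349 and 125 CPM (202 ± 128, SD, n = 3), and on day 21 they were 293, 121, 160 and 265 CPM (210 ± 82.6, SD, n = 4). Each of these libraries lay above every day 0 library. The log2 fold changes were 2.96 on day 7 (standard error 0.42, edgeR adjusted p = 1.4e-05), 3.24 on day 14 (standard error 0.43, edgeR adjusted p = 3.1e-05) and 3.30 on day 21 (standard error 0.42, edgeR adjusted p = 1.7e-05), the 3 comparisons sharing the day 0 libraries.

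Day 28 stood between the baseline and the plateau for Lgals3bp, at 64.6, 57.9 and 68.7 CPM (mean 63.7 ± 5.47, SD, n = 3). All 3 libraries were above those of day 0, at a log2 fold change of 1.58 that was not called (95% interval 0.67 to 2.49, edgeR adjusted p = 0.0801, range over the alternatives 0.00343 to 0.332). They lay below those of day 7, by -1.38 on the log2 scale (standard error 0.42, edgeR adjusted p = 0.0284), a call lost without 1 of 6 single libraries, with adjusted p up to 0.0909 without day 28 replicate 2. They were also below every day 21 library (log2 fold change -1.72, edgeR adjusted p = 0.0543, not called). Days 7, 14 and 21 did not differ from each other beyond their spread, with log2 fold changes of 0.28 (95% interval -0.53 to 1.09) for day 14 over day 7, 0.34 (-0.41 to 1.09) for day 21 over day 7 and 0.06 (-0.75 to 0.87) for day 21 over day 14.

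Lgals9, a ligand of the inhibitory T cell receptor Havcr2 (Tim-3), was low throughout and showed its highest levels on days 7 and 14. It is on chromosome 11 from 78853800 to 78875798 (GRCm39, - strand). The day 0 libraries held 23.8, 26.3, 0 and 23.6 CPM (mean 18.4 ± 12.4, SD, n = 4), and those of day 7 held 65.9, 52.1, 61.8 and 22.6 CPM (50.6 ± 19.5, SD, n = 4). Day 14 levels were 35.2, 77.6 and 45.7 CPM (52.8 ± 22.1, SD, n = 3), day 21 levels 36.7, 22.2, 39.5 and 23.3 CPM (30.4 ± 8.94, SD, n = 4), and day 28 levels 11.5, 6.62 and 19.2 CPM (12.4 ± 6.33, SD, n = 3). Day 7 replicate 4 overlapped the day 0 range, while the day 14 libraries did not. Against day 0 the gene was not called on any day. The log2 fold change was 1.43 on day 7 (95% interval 0.22 to 2.64, edgeR adjusted p = 0.0924, but 0.0415 with DESeq2) and 1.49 on day 14 (0.22 to 2.77, edgeR adjusted p = 0.187). From day 7 to day 28 it fell by 2.00 on the log2 scale with no overlap (standard error 0.68, edgeR adjusted p = 0.0485), which was lost in 18 of 24 alternatives, up to 0.154 without day 28 replicate 2. The highest count of Lgals9 in any library was 44.

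Lgals1, the galectin of mesenchymal and smooth muscle cells, was not called against day 0 on any day. It is on chromosome 15 from 78810875 to 78814670 (GRCm39, + strand). Its exons overlap those of Gm30368, a lncRNA on the other strand, by up to 193 bases per pair of exons. Without the strand use of the counting, reads from the shared stretch cannot be told from those of Gm30368. The level was 2256, 2135, 2464 and 1991 CPM on day 0 (mean 2211 ± 200, SD, n = 4) and 3134, 2627, 2611 and 2041 CPM on day 7 (2603 ± 447, SD, n = 4). Later libraries held 1780, 1908 and 1846 CPM on day 14 (1845 ± 63.7, SD, n = 3), 1567, 1409, 1746 and 1538 CPM on day 21 (1565 ± 139, SD, n = 4) and 1944.6, 1397 and 2148 CPM on day 28 (1830 ± 388, SD, n = 3). Every library of days 14 and 21 was below every library of days 0 and 7, whereas those of day 28 overlapped both. The only call was the fall from day 7 to day 21, by -0.73 on the log2 scale (standard error 0.19, edgeR adjusted p = 0.0138), lost without day 7 replicate 1 (adjusted p = 0.0832) or day 21 replicate 4 (0.0520). Against day 0 the log2 fold change was 0.24 on day 7 (95% interval -0.14 to 0.61, edgeR adjusted p = 0.437) and -0.50 on day 21 (-0.88 to -0.12, edgeR adjusted p = 0.0947, 0.0447 with DESeq2).

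Lgals8, which marks damaged endosomes for autophagy, was not called in any of the 9 comparisons. It lies on chromosome 13 from 12454282 to 12479840 (GRCm39, - strand). Its exons overlap those of Heatr1 on the other strand by up to 155 bases per pair of exons. Its libraries held 93.8, 50.2, 28.3 and 38.1 CPM on day 0 (mean 52.6 ± 28.9, SD, n = 4), 81.9, 98.8, 71.8 and 54.9 CPM on day 7 (76.8 ± 18.4, SD, n = 4), and 62.4, 75.9 and 45.7 CPM on day 14 (61.3 ± 15.1, SD, n = 3). On day 21 they held 41.4, 42.4, 37.8 and 34.9 CPM (39.1 ± 3.43, SD, n = 4) and on day 28 46.0, 57.9 and 81.5 CPM (61.8 ± 18.1, SD, n = 3). The day 21 libraries were the tightest and lay below every day 7 library (log2 fold change -0.97, 95% interval -1.71 to -0.22, edgeR adjusted p = 0.114). That comparison passed the threshold in a fit of the 2 days alone (adjusted p = 0.0460) and with limma on the deposited normalised values (0.0439). These deposited values carry for Lgals8 a further factor of 0.900 to 1.29 per library beyond the library factor.

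**Figure D1:**
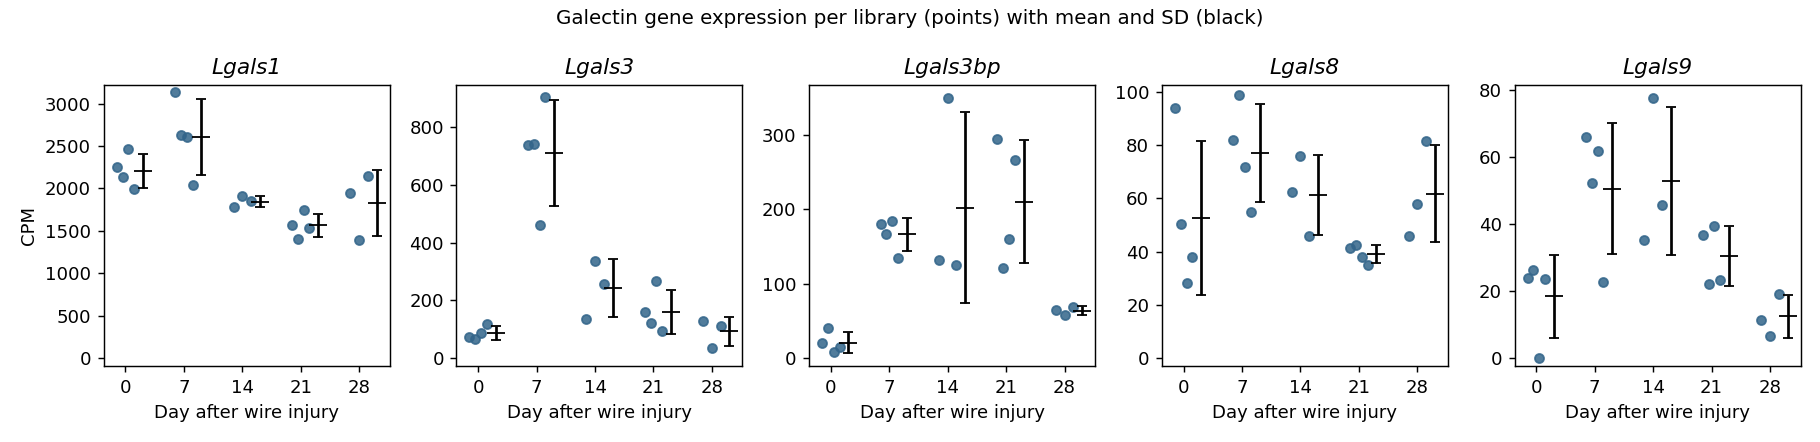
Level of the 5 genes in CPM (vertical axis, linear, a separate scale per gene) in each of the 18 libraries by day after wire injury (points), with the mean and SD of the day in black. Lgals3 stands at 460 to 904 CPM on day 7 against 64.6 to 119 on day 0, while Lgals3bp is still at 121 to 293 CPM on day 21.

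Counted over the 5 genes, 2 were called higher on day 7 against day 0, where 11.3% of all genes tested were higher and 8.53% lower. On day 14 the same count was 2 (4.80% of all genes higher, 1.42% lower), on day 21 it was 1 (5.92% and 2.93%) and on day 28 it was 0 (0.970% and 0.369%), and no member was called lower against day 0. The median log2 fold change of the 5 genes was 1.43 on day 7 against 0.07 over all genes, 1.49 against 0.05 on day 14, 0.72 against 0.07 on day 21 and 0.10 against -0.01 on day 28. Against day 7, 1 member was lower on day 14 (0.330% of all genes lower, 1.33% higher), 2 on day 21 (3.23% and 4.03%) and 3 on day 28 (8.05% and 6.40%), with 0 higher. Between days 14 and 21 edgeR called 0 members and 0 of all genes (0% higher and 0% lower), with 0 members and 421 genes at an unadjusted p under 0.05, and DESeq2 called 30 genes. Between days 21 and 28 edgeR called 0 members (0.107% of all genes higher, 0.572% lower), 1 having an unadjusted p under 0.05, and DESeq2 called 1, Lgals3bp (adjusted p = 0.0107). These comparisons share libraries and are not independent of each other.

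**Figure D2:**
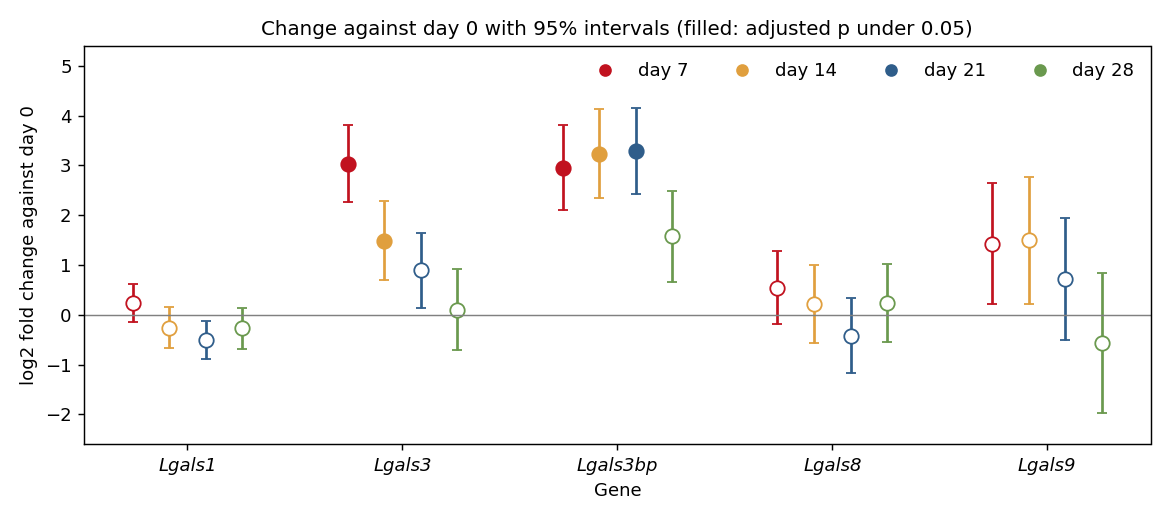
Log2 fold change against day 0 (vertical axis) of the 5 genes on days 7, 14, 21 and 28, with bars for the 95% interval from the edgeR fit and filled points where the adjusted p was under 0.05. Filled points are Lgals3 on days 7 and 14 (3.04 and 1.49) and Lgals3bp on days 7, 14 and 21 (2.96, 3.24 and 3.30).

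The time courses of Lgals3 and its binding partner Lgals3bp were compared within each library as the ratio of their counts, a comparison chosen after both genes had been seen. Day 0 ratios were 3.57, 1.59, 11.8 and 8.27, and those of day 7 were 4.12, 4.44, 2.51 and 6.75. From day 14 the ratio was lower, at 1.04, 0.960 and 2.06 on day 14, 0.540, 1, 1.68 and 0.351 on day 21 and 2, 0.629 and 1.63 on day 28, and every one of these lay below every day 7 ratio. In order of day, the mean log2 ratio was 2.28 ± 1.29 (SD, n = 4), 2.07 ± 0.58 (SD, n = 4), 0.35 ± 0.61 (SD, n = 3), -0.41 ± 0.99 (SD, n = 4) and 0.34 ± 0.89 (SD, n = 3). Two-sided exact permutation tests of day 7 against the others gave p = 0.771 for day 0, p = 0.0286 for day 21 and p = 0.0571 for days 14 and 28, the last 3 being the smallest p that these group sizes allow. Adjusted over the 4 tests, the exact permutation p was 0.771 for day 0 and 0.0762 for each of the others. With these group sizes the adjusted p could not have gone below 0.0571 in any of the 4 tests, so the threshold of 0.05 was out of reach by design. Ratios of counts between genes depend on the length and capture of each 3′ end and are read here only for their change between days.

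Markers of the cells in the dissected tissue moved over the same days, and in bulk samples fewer cells of a type and less RNA per cell cannot be told apart. All 12 macrophage markers had a count by day 7, and on day 0 Mpeg1 was at 0 while the other 11 had counts. Their summed level was 121 to 566 CPM on day 0, 5171 to 7635 on day 7, 1459 to 3295 on day 14, 2103 to 3804 on day 21 and 893 to 1258 on day 28. Called higher than day 0 were 12 of 12 on each of days 7, 14 and 21 and 4 of 12 on day 28. Over all genes tested, 11.3%, 4.80%, 5.92% and 0.970% were higher on days 7, 14, 21 and 28. Mpeg1 could pass the filter only through the later days. The same holds for Aif1, Adgre1 and Cd14, which reached at most 2.39, 11.8 and 14.4 CPM on day 0. It also holds for Cd68 and Ctss, with day 0 means of 6.24 and 6.89 CPM. The counts of higher markers therefore include genes admitted only through the days on which they are high. The 9 contractile smooth muscle markers, which include Acta2 and Myh11, went the other way, at 37815 to 43588 CPM on day 0, 1718 to 7972 on day 7, 8446 to 26620 on day 14, 9609 to 24514 on day 21 and 25116 to 32627 on day 28. Day 14 replicate 1 had both the lowest macrophage sum (1459 CPM) and the highest smooth muscle sum (26620 CPM) of its day, along with the lowest Lgals3 level of that day. This is a single library. Over all 18 with the day means subtracted, Lgals3 correlated at 0.34 with the macrophage sum and at 0.09 with the smooth muscle sum. Neutrophil markers, of which 5 of 8 were detected on day 0 and 6 of 8 on day 7, had a summed mean of 57.1 CPM on day 0 and 532 on day 7. Most of the day 0 sum was Cxcr2, at a mean of 50.3 CPM on day 0 and 122 on day 7. S100a8 and S100a9 went from 0.598 and 0.656 CPM to 183 and 150. The part of any of these cells in the galectin results was not tested.

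**Figure D3:**
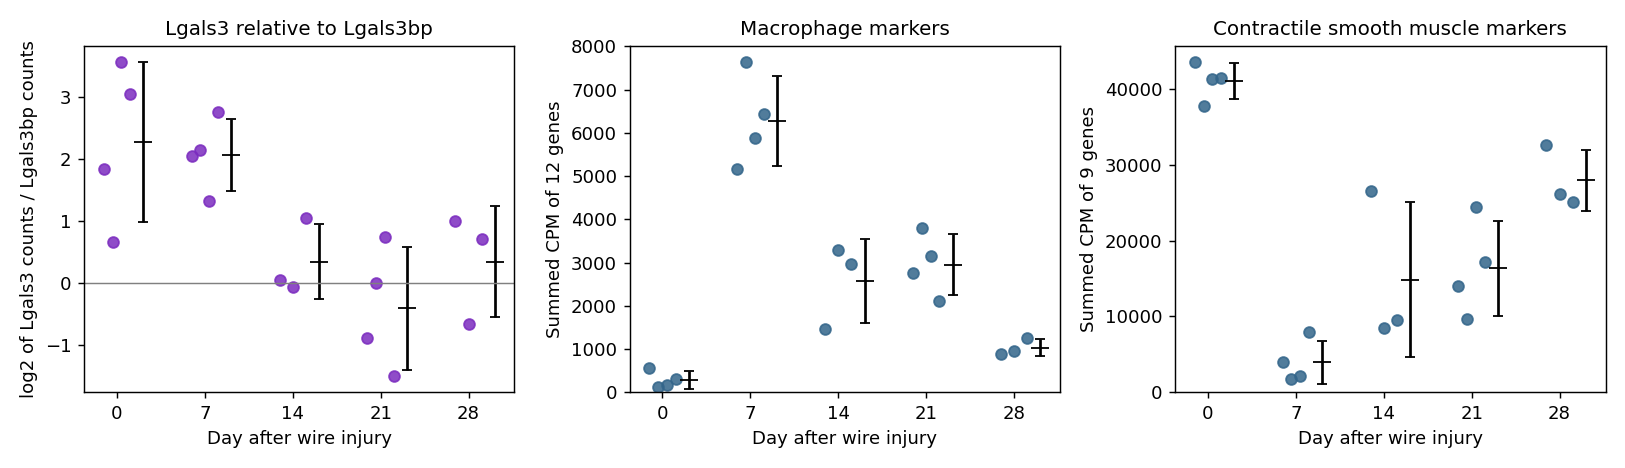
Left, log2 of the ratio of Lgals3 to Lgals3bp counts per library by day (0 means equal counts). Middle and right, summed CPM of 12 macrophage and 9 contractile smooth muscle markers per library, with mean and SD in black. The ratio of every library after day 7 lies below the 4 of day 7, while the macrophage sum is highest on day 7 (5171 to 7635 CPM) and the smooth muscle sum is lowest there (1718 to 7972 CPM).

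Over the 18 libraries, which share the time course, the correlation of log2 CPM with the macrophage sum was 0.76 for Lgals3, 0.83 for Lgals3bp, 0.64 for Lgals9, 0.37 for Lgals8 and 0.02 for Lgals1. With the day means subtracted it was 0.34 for Lgals3, -0.06 for Lgals3bp, 0.35 for Lgals9, 0.54 for Lgals8 and -0.01 for Lgals1. With the contractile smooth muscle sum it was -0.81, -0.65, -0.62, -0.47 and -0.38 in the same order of genes. Day means subtracted, these were 0.09, -0.22, -0.25, -0.28 and -0.14. For Lgals3 the fibroblast sum gave -0.41 over all libraries and 0.57 within days, and the endothelial sum 0.15 and -0.13. The paper lists Lgals3 among genes expressed by its SEM cells, a possible form of modulated smooth muscle cell. Among the genes themselves, Lgals3 and Lgals3bp correlated at 0.54 over all libraries and at -0.02 within days, whereas Lgals3bp and Lgals9 stood at 0.72 and 0.67.

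By correlation of log2 CPM over the 18 libraries, the genes whose pattern was most like that of Lgals3 were Clec4n (0.94), a C-type lectin of myeloid cells, Fabp5 (0.94), a fatty acid carrier, Mcm3 (0.92), a subunit of the replicative helicase, Ms4a6d (0.92) and Ftl1 (0.92), the ferritin light chain. Lgals3bp was most like H2-Ab1 (0.93), an MHC class II chain, Col8a1 (0.93), a collagen of the vessel wall, Ly86 (0.92), Ccn4 (0.92) and Aif1 (0.91). For Lgals9 the closest were Man2b1 (0.90), a lysosomal mannosidase, and Ucp2 (0.90), followed by Tpm4, Kifap3 and H2az1. For Lgals1 they were Cox6b1 (0.87), Taf5l and Pkm (0.86 each), Psmb3 and C1qbp, and for Lgals8 Kpna3 (0.82), Nfkb2, Gadd45gip1, Pdhb and Gbp5. When day means were subtracted, 1 of the 5 remained among the closest for Lgals3 and 1 for Lgals9, and 0 for the other 3 genes.

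Of the other galectin-fold genes, Lgalsl, which encodes a galectin-related protein, fell on day 7. It held 84.9, 77.7, 185 and 69.6 CPM on day 0 and 19.6, 12.6, 25.9 and 30.7 CPM on day 7, with no overlap. That was a log2 fold change of -2.22 (standard error 0.46, edgeR adjusted p = 0.000957), and by day 21 it was higher than on day 7 by 2.00 (edgeR adjusted p = 0.00712). On day 28 Lgalsl was uneven, at 116, 31.4 and 22.4 CPM, and was not called against day 7 (log2 fold change 1.35, edgeR adjusted p = 0.0633). Its exons overlap those of Gm32213 on the other strand by up to 248 bases per pair of exons. Lgals4 had 80 counts in all libraries together and was not called. Lgals2 (2 counts), Lgals7 (3) and Lgals12 (5) were close to absent, Grifin had 0 counts, and Lgals6 had no entry in the count table.

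Glycoproteins that galectins are known to bind were described from a list of 18 genes, all tested. On day 7, 8 were higher and 1 lower than on day 0, where 11.3% of all genes tested were higher and 8.53% lower. On day 14 there were 6 and 0 (4.80% and 1.42% of all genes), on day 21 there were 8 and 0 (5.92% and 2.93%), and on day 28 there were 0 and 0 (0.970% and 0.369%). Itgam and Havcr2 are among the higher genes on days 7, 14 and 21. Both had 0 counts in every day 0 library and could pass the filter only through later days. Trem2 and Ptprc, also higher on all of these days, reached at most 2.98 and 13.4 CPM on day 0. They too could not pass through day 0, nor could Pdpn (day 0 mean 12.2 CPM), which was counted on day 7. The counts of higher genes therefore include genes admitted only through the days on which they are high. The list was also chosen with earlier results of these data known, so its counts are a description and not a test. The median log2 fold changes of the list were 0.94, 1.26, 1.09 and 0.15, against 0.07, 0.05, 0.07 and -0.01 over all genes. Fn1, the matrix protein fibronectin, rose from 1230 ± 229 CPM (SD, n = 4) to 3525 ± 502 (SD, n = 4) by day 7, which is 1.52 on the log2 scale (standard error 0.21, edgeR adjusted p = 7.7e-06), and Cd44, the hyaluronan receptor, rose from 34.2 ± 15.03 to 233 ± 86.9 CPM, a log2 difference of 2.75 (standard error 0.41, edgeR adjusted p = 2.5e-05). Trem2, a lipid receptor of macrophages, had 0 to 2 counts per library on day 0 and 45 to 83 on day 7 (edgeR adjusted p = 1.3e-05). Itgam, a chain of the complement receptor CR3, had no count in any day 0 library and 26 to 53 counts on day 7, at least 16.3-fold higher than 3 counts per library (edgeR adjusted p = 2.9e-05). Only Itgb1, the integrin β1 chain, was lower, by -0.80 on the log2 scale (edgeR adjusted p = 0.00783). From day 7 to day 28, 7 of the 18 fell and 0 rose (8.05% of all genes lower, 6.40% higher), Cd44 among them (-1.88, edgeR adjusted p = 0.00442). Havcr2, also among those that fell, had 0 counts in every day 28 library.

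Among enzymes that build or trim the sugar chains galectins bind, 10 of 12 were tested, and on day 7 against day 0 there were 3 higher and 1 lower (11.3% of all genes higher, 8.53% lower). The median log2 fold change of the 10 was 0.43, against 0.07 over all genes. The higher ones were B4galt1, a β-galactosyltransferase that makes N-acetyllactosamine (0.94, edgeR adjusted p = 0.0127), Man2a1 (0.99, 0.0249) and Mgat2 (1.08, 0.0434), both of N-glycan processing, while Mgat4a was lower (-1.54, 0.0432). A further list held 8 autophagy and lysosome genes, taken as possible partners of galectins at damaged lysosomes. Of these, 7 were tested and 1 was called on day 7. Over all genes 8.53% were lower and 11.3% higher, a share near which 1 of 7 is no result about the list. The gene called was Calcoco1, an autophagy receptor. It was lower, at 19.8 ± 6.44 CPM (SD, n = 4) on day 7 against 63.8 ± 8.94 (SD, n = 4) on day 0 (log2 fold change -1.67, edgeR adjusted p = 0.00507). The next smallest p belonged to Map1lc3b (-0.73, edgeR adjusted p = 0.0626), a structural protein of autophagosomes, Gabarapl2 (-0.63, 0.100) of the same family, and Tfeb (-0.63, 0.245), a regulator of lysosomal genes, none of which was called.

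**Figure D4:**
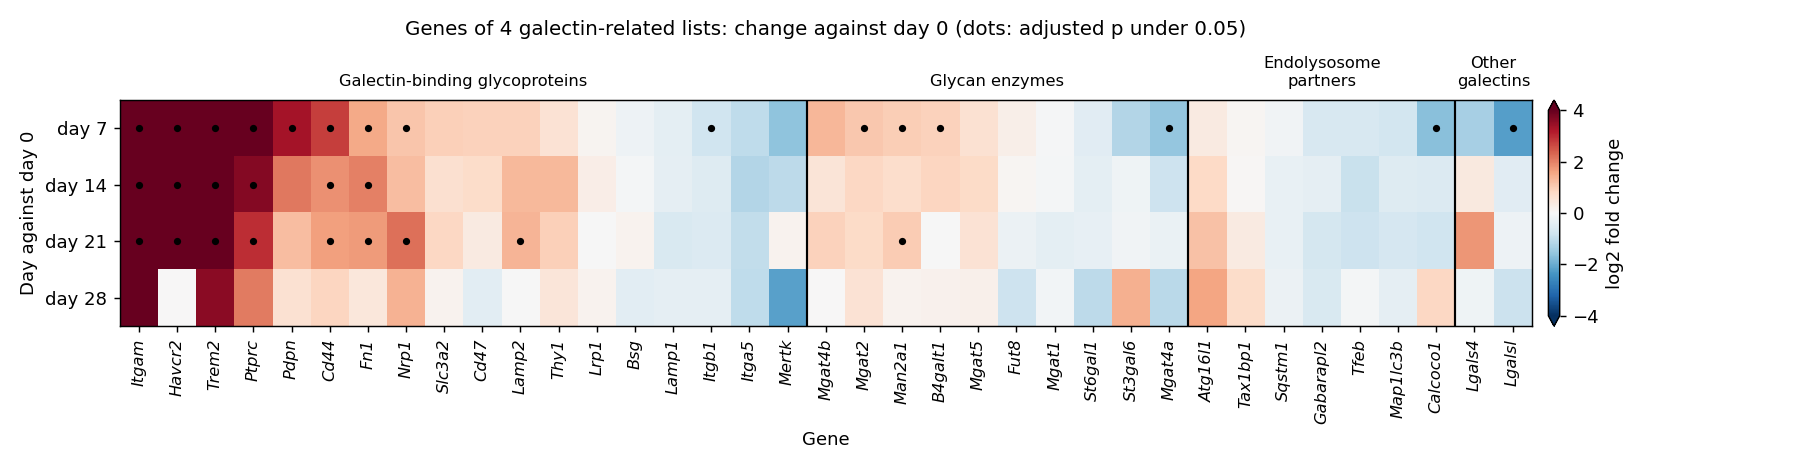
Log2 fold change against day 0 (colour, capped at 4 either way) of the tested genes of 4 lists by day, with dots where the adjusted p was under 0.05. Of the 18 binding glycoproteins 8 rose on day 7 and 8 on day 21, and none passed the threshold on day 28. Itgam and Havcr2, counted on both of the earlier days, had 0 counts in every day 0 library. Trem2 and Ptprc, also counted on both, were too low on day 0 to pass the filter through that day. The strong colours of Itgam and Trem2 on day 28 belong to genes with no or few counts on day 0.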

How the data were processed

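MACE-seq libraries of laser-dissected carotid tissue from 18 samples were used. The authors quantified reads with Salmon 1.9.0 against mm39 and deposited the estimated counts per gene, which are expected counts not normalized, and a second table of normalised signal made with DESeq2 1.36.0. How transcripts were summed to genes, the annotation release and the use of strand are not given in the sources used here. The samples' day came from their labels.

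Counts of all libraries were fitted together in R 4.3.3 with edgeR 4.0.16 (filterByExpr by day, TMM, quasi-likelihood test, day as the only term), calling genes at a Benjamini-Hochberg adjusted p under 0.05 among the 10312 tested. CPM and log2 CPM (prior count 2) come from that fit. Alternatives were DESeq2 1.42.0, other size factors, no filter, the 2 days alone, a replicate block, a mouse number block, limma 3.58.1 on the deposited normalised signal (pseudocount 1) and each library left out. The steps were tested on simulated data. Promoters are RefSeq's and gene positions are GENCODE's.

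The members and gene lists were chosen with earlier results of these data known. The genes named are the 5 members, the other galectin-fold genes, from each of the 3 lists of partners the 4 with the smallest p on day 7, and the 5 genes most like each member. Itgb1, St3gal6 and the ratio of Lgals3 to Lgals3bp were chosen after their values were seen. Same-numbered replicates did not pair (residual correlation -0.13 to 0.20, median -0.01 over 33 pairs), nor did libraries with the same mouse number (-0.01 to 0.06 over 3 pairs).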

Additional observations from a re-analysis of the deposited data

Results flagged for a closer look

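Lgals9 had 0 CPM in day 0 replicate 3, where the other day 0 libraries held 23.6 to 26.3 CPM. The gap between this library and the nearest other was 0.898 of the whole range of the 4 libraries, beyond Dixon's 95% critical value. Of the 15 sets of 4 libraries examined over the 5 genes this was the 1 flagged, and chance flags about 1 in 20. Without this library Lgals9 was still not called against day 0 on any day. For day 21 against day 0 the edgeR adjusted p was then 0.771, the highest of the 25 alternatives. The comparison of day 28 with day 7, which does not contain this library, had an edgeR adjusted p of 0.00971 without it. That was the lowest of the 24 alternatives.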

How the results depend on the processing

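The directions of Lgals3 and Lgals3bp on day 7 against day 0, and both calls, held in all 24 alternatives. The number of the 5 galectin genes called on day 7 against day 0 was 3 with DESeq2 (Lgals9 added) and 2 in the other alternatives. On day 21 against day 0 it was 2 in place of 1 with DESeq2 (Lgals1 added) and with no filter (Lgals3 added). On day 28 against day 0 it was 1 in place of 0 with DESeq2, with no filter and with limma on the deposited values. For day 14 against day 7 it was 0 in place of 1 with the 2 days alone and with the replicate block. For day 28 against day 21 it was 1 in place of 0 with DESeq2, with no filter and with the 2 days alone. Leaving out 1 library gave 1 to 2 genes for day 14 against day 0, 0 to 1 for day 28 against day 0, 0 to 1 for day 14 against day 7, 1 to 2 for day 21 against day 7, 1 to 4 for day 28 against day 7 and 0 to 1 for day 28 against day 21. The replicate block, which is no true pairing here, gave 2 genes on day 14 against day 0 and 2 for day 28 against day 7. Over all genes the calls ranged from 233 (without day 14 replicate 2) to 932 (no filter) on day 14 against 641, from 32 to 480 on day 28 against 138, from 26 to 392 for day 14 against day 7 (171), from 922 to 1881 for day 28 against day 7 (1490), from 0 to 30 for day 21 against day 14 (0) and from 15 to 410 for day 28 against day 21 (70). The median log2 fold change of all genes on day 7 against day 0 was 0.07 as reported, 0.10 with DESeq2 and with other size factors, and 0.17 with the deposited values. For single galectin genes, alternatives lost a call in 38 cases and gained one in 18, and none turned the direction of a called value. The causes were not tested. With 22 to 560 counts of Lgals3 and 0 to 44 of Lgals9 per library, small changes of Lgals9 could not be seen at this depth.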

Other observations

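The remaining marker lists gave the following summed mean levels. In order of day (0, 7, 14, 21, 28), fibroblast markers were at 2971, 1416, 3413, 3422 and 2426 CPM. Members of the fibroblast list went opposite ways, with Lum at 119, 562, 1566, 1837 and 558 CPM and Gsn at 1465, 291, 608, 618 and 930. On days 14 and 21 the means of Dcn and Pdgfra were also above day 0, and those of Dpt, Pi16 and Clec3b were below. Endothelial markers stood at 863, 1215, 939, 939 and 928 CPM, with 545 to 1830 CPM between the day 7 libraries. Pecam1 made up most of this sum, and the members went opposite ways. From day 0 to day 7 the mean fell for Vwf (157 to 25.1 CPM) and Tek (44.9 to 38.0). It rose for the other members, among them Cdh5 (68.9 to 250) and Cldn5 (22.2 to 137). Red cell markers were at 214, 1566, 44.7, 173 and 46.5 CPM. T cell markers held 11.3 to 28.2 CPM and B cell markers 1.60 to 12.3 CPM in the mean of a day, and no gene of either list passed the filter. Schwann cell markers were at 100.3 CPM on day 21, with 14.8 to 232 CPM between its libraries, and at 21.2 to 50.7 on the other days. Skeletal muscle markers ranged from 0 to 231 CPM between libraries.

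Calcoco1, the autophagy receptor that was lower on day 7, stood at 113 ± 62.1 CPM (SD, n = 3) at day 28, which is 2.48 on the log2 scale over day 7 (standard error 0.44, edgeR adjusted p = 0.000436). St3gal6, a sialyltransferase that caps galactose, was also higher on day 28 than on day 7 (log2 fold change 2.59, edgeR adjusted p = 0.0151). B4galt1 was lower on day 21 than on day 7 (log2 fold change -0.96, edgeR adjusted p = 0.0262).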
